A study of Caenorhabditis elegans with 3 samples.

Results

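The translation factor genes of Caenorhabditis elegans described here are the 39 genes whose deposited symbol starts with eif-, eef-, eft-, iff-, ife-, ifg-, ifet-, iftb- or inf-, out of 19194 genes in the deposited table. Of these, 34 encode initiation factors or factors named with them, including the eIF5A genes, and 5 encode elongation factors. Native poly-A RNA of the wild-type strain N2 was read directly on a nanopore device, without copying or amplification, in 1 library each of mixed-stage embryos, L1 larvae (the first larval stage after hatching) and whole young adults. No treatment or mutation separates the groups, and no label gives an age in hours. With 1 library per stage there is no replicate check and no p-value, and every interval below is a 95% interval for counting error in these libraries. The embryo library is a mixture of embryonic stages, and the larval and adult libraries are whole animals, so that fewer cells of a type and less RNA per cell cannot be told apart.

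To start translation, the small ribosomal subunit, with eIF1, eIF1A, eIF3 and the eIF2 complex that carries the initiator tRNA, is brought to the capped end of an mRNA by eIF4E, eIF4G and the helicase eIF4A, and scans to the start codon. eIF2B recharges eIF2 with GTP between rounds. During elongation eEF1A delivers aminoacyl-tRNAs, the eEF1B subunits and eEF1 gamma recharge eEF1A, eEF2 moves the ribosome along the mRNA, and eIF5A, first named as an initiation factor, helps ribosomes through difficult stretches. In C. elegans several of these activities are shared out among paralogues, some of which are known to act mainly in the germline and others in the soma.

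The embryo library held 941679 rounded reads, the larval library 1017133 and the adult library 1611115. Stage markers went with the embryo and young adult labels, but adult markers were read in the L1 library too. Of 6 embryonic markers found, hch-1, end-1 and end-3 were at 0 in the larval and adult libraries. All 6 summed to 714.7 reads per 1000000 library reads (RPM) in the embryo, 79.6 in the larval and 118.6 in the adult library. The 6 vitellogenin yolk genes were at 0 in the embryo library, with 515.2 RPM in the L1 and 5535 RPM in the adult library. The 33 sperm genes summed to 15.9, 639.1 and 7467 RPM in the embryo, larval and adult libraries, and 7 neuronal genes to 210.3, 3794 and 196.1 RPM. L1 larvae are not known to make yolk or sperm, yet 4 of 6 yolk and 30 of 33 sperm genes had reads there, at 9.31% and 8.56% of the adult sums, which goes against the label. The origin of these reads was not tested. As an alternative added after seeing the data, 9.31% of each adult level was taken off the larval level. All 18 L1 pair calls of members given below were kept with that change, and 4 were added. These were ife-3 and iff-1, lower in L1 than in embryo, and eif-2alpha and eif-2Bepsilon, higher in young adult than in L1. By its arithmetic the change widens every young adult to L1 difference and lowers the larval share of genes higher in the adult library. Calls kept or added under it are therefore no test of whether the calls hold. Of all genes, 36.0% were then called lower in L1 than in embryo and 18.7% higher in young adult than in L1. Cytosolic ribosomal protein genes took 11.1% of embryo reads, 33.4% of larval reads and 28.2% of adult reads. A read share is relative to the rest of its library. TMM factors, which scale libraries to a typical gene, moved the median log2 ratio of all genes by 0.87 for L1 against embryo and by 0.80 for young adult against embryo, but by -0.07 for young adult against L1.

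All 39 members had reads in each library, and together they took 1.39% of embryo reads (13130 reads), 1.74% of larval reads (17691) and 1.38% of adult reads (22310). The L1 share was 1.25 times the embryo share (1.22 to 1.28), while the young adult share lay within counting error of the embryo share, at 0.993 times (0.972 to 1.01). With TMM factors these ratios were 2.28 and 1.73. The sum hides opposite differences in its parts. Elongation factor genes took 0.782% of embryo reads, 1.38% of larval reads and 0.814% of adult reads, highest in the larval library. Their sum holds eef-1A.2 as its only eEF1A gene, since no member is named eef-1A.1 or with eft-. Initiation factor genes took 0.612%, 0.356% and 0.571%, lowest in the larval library on this scale. The L1 to embryo ratio of the initiation genes was 1.72-fold lower on read shares (1.65 to 1.79) but 1.07 with TMM factors, so that its direction rests on the scaling. That of the elongation genes was 1.77 (1.72 to 1.82) and 3.24.

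The balance between the 2 groups can be read inside each library, where no scaling between libraries enters. There were 1.28 elongation reads for each initiation read in the embryo library (1.23 to 1.32), 3.88 in the larval library (3.74 to 4.03) and 1.43 in the adult library (1.39 to 1.46). The larval ratio was 4.32 with the adult share taken off. Without eef-1A.2, whose reads can be shared with near-identical copies, these ratios were 0.881, 3.52 and 1.37. Without the eIF5A genes they were 1.60, 6.60 and 2.07. The larval library was highest in each version. Ribosomal protein genes had 18.2 reads for each initiation read in the embryo library, 93.9 in the larval library and 49.4 in the adult library, against 14.2, 24.2 and 34.6 for each elongation read.

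**Figure D1:**
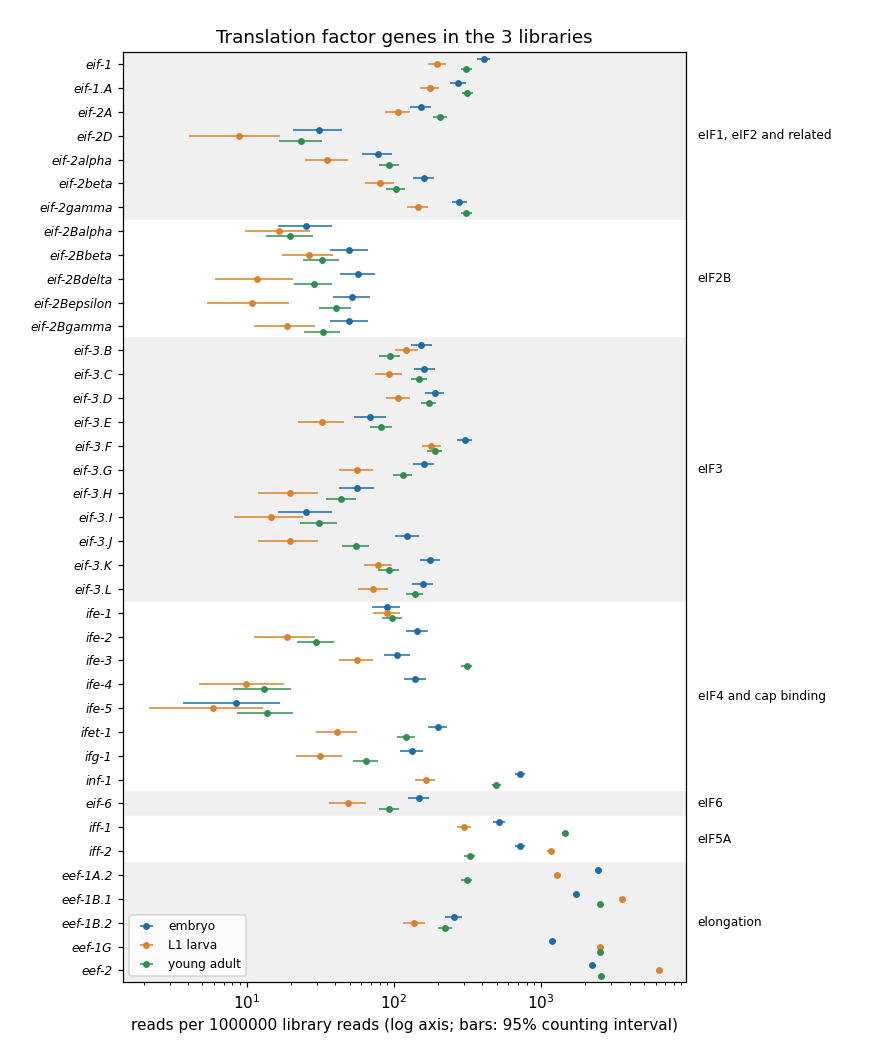
Read level of each of the 39 translation factor genes in the embryo, L1 larva and adult libraries, in reads per 1000000 library reads on a log axis, grouped by role, with bars for the 95% counting interval. Of the 34 initiation genes, 22 run highest in embryo and lowest in L1 on this scale of read shares and 9 highest in young adult and lowest in L1. By contrast eef-2 has its highest point in L1, at 6355. No share of all genes is at hand beside these counts.

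A gene was called higher or lower where the bound of its interval nearest to 1 was at least 2-fold from 1, among genes that reached 20 reads in the compared libraries together. In the larval library against the embryo library, 10 of 39 members were called lower (25.6%) beside 33.1% of all 8382 genes compared, and 1 was called higher (2.56%) beside 13.4%. With TMM factors 4 members were lower beside 13.5% of all genes, and 4 were higher beside 18.8%. The members' median log2 ratio was -0.96, against -1.14 for all genes, and with TMM factors -0.09 against -0.27. ife-5 had too few reads for this pair. The shares of members called did not exceed the background in either direction. Of 33 initiation genes compared, 28 had intervals wholly below 1 on read shares, but with TMM factors 10 did and 3 lay wholly above 1. No share of all genes is at hand beside these counts. The initiation genes' median log2 ratio was -1.08 beside -1.14 for all genes, or -0.21 beside -0.27 with TMM factors, so they lay near the typical gene.

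In the adult library against the larval library 4 members were called higher (10.3%) beside 14.5% of 8043 genes, and 3 lower (7.69%) beside 14.2%. Their median log2 ratio was 0.85, against 0.32 for all genes. With TMM factors 3 were higher beside 13.1% and 3 lower beside 14.9%. In the adult library against the embryo library 2 members were called higher (5.13%) beside 13.2% of 8636 genes, and 3 lower (7.69%) beside 29.3%. With TMM factors 4 were higher beside 19.6% and 2 lower beside 17.3%. The median of -0.37 in that pair, against -0.71 for all genes, became 0.43 against 0.09 with TMM factors. These pairs share libraries, so their values are given side by side and not as repeats of each other.

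**Figure D2:**
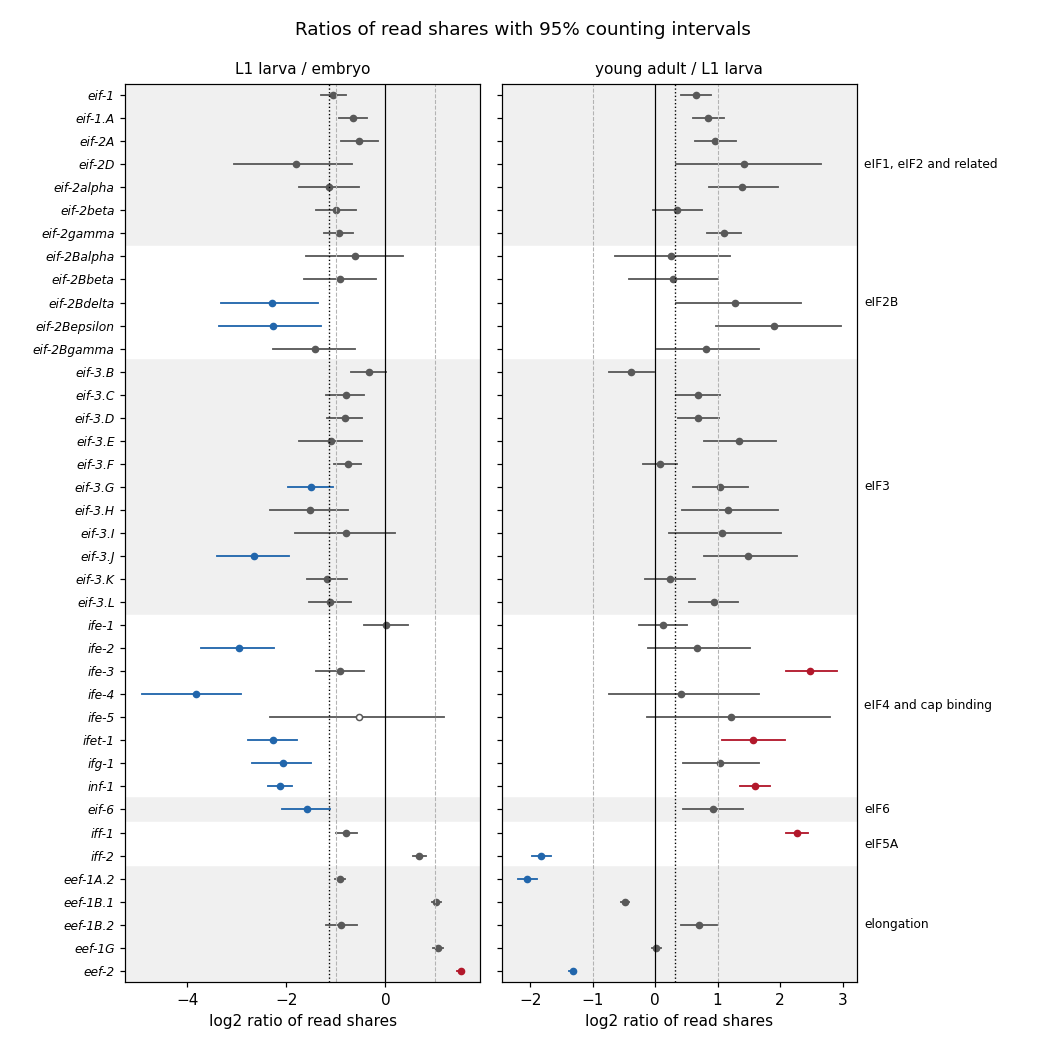
Log2 ratio of read shares of each member, L1 larva over embryo (left) and young adult over L1 larva (right), with 95% counting intervals. Red points are called higher and blue points lower, grey points neither, and the open point had fewer than 20 reads. The dotted line is the median of all genes compared, -1.14 on the left and 0.32 on the right, and dashed lines mark 2-fold. Most initiation genes on the left lie around the dotted line.

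None of the 7 genes for eIF1, eIF1A, the eIF2 subunits, eIF2A and eIF2D was called in any pair. With the adult share taken off, eif-2alpha was called higher in young adult than in L1. eif-1, whose product keeps the scanning ribosome from starting at wrong codons, had 386 embryo reads, 201 larval reads and 501 adult reads, or 409.9, 197.6 and 311 RPM. eif-1.A had 274, 175 and 315.3 RPM. The 3 subunits of eIF2 differed little in their L1 to embryo ratios: eif-2alpha, the subunit phosphorylated under stress, was 2.19-fold lower (1.45 to 3.36), eif-2beta 1.99-fold lower (1.51 to 2.64) and eif-2gamma, the GTP-binding subunit, 1.92-fold lower (1.56 to 2.36). With TMM factors the 3 L1 to embryo ratios were 0.836, 0.921 and 0.954.

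The same subunits were higher in the adult library than in the larval library, although none was called. eif-2alpha stood at 77.5, 35.4 and 93.1 RPM in the embryo, larval and adult libraries, and eif-2gamma at 279.3, 145.5 and 311 RPM. eif-2beta, at 160.4, 80.6 and 103 RPM, differed less, and its young adult to L1 ratio of 1.28 (0.975 to 1.69) included 1. eif-2A and eif-2D, which in mammals can bring initiator tRNA to the ribosome outside the main route, had 152.9, 106.2 and 206.7 RPM and 30.8, 8.85 and 23.6 RPM. Over these 7 genes the joint share was 1.85-fold lower in the L1 than in the embryo library (1.69 to 2.02), but the ratio was 0.991 with TMM factors.

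eIF2B genes were read less. The 5 subunits together had 221 embryo, 86 L1 and 248 adult reads. Their joint share was 2.78-fold lower in the L1 than in the embryo library (2.15 to 3.6). eif-2Bdelta, a regulatory subunit, had 54, 12 and 46 reads and was 4.86-fold lower in the larval library (2.57 to 9.98). eif-2Bepsilon, the catalytic subunit, had 49, 11 and 65 reads and was 4.81-fold lower (2.47 to 10.3). Both were called lower on read shares, beside 33.1% of all genes, and neither with TMM factors, where their ratios were 0.377 and 0.381. eif-2Bgamma had 47, 19 and 53 reads, eif-2Bbeta 47, 27 and 52 and eif-2Balpha 24, 17 and 32, and these were not called. At such counts the intervals of the 5 subunits overlap one another in the L1 to embryo pair.

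eIF3, the large scaffold that binds the small subunit, was represented by 11 genes with 1484 embryo, 809 L1 and 1875 adult reads. No member was named for the subunit eIF3a, so these sums lack it. Each of the 11 had a smaller share in the larval library than in the embryo library. The difference ran from 1.26-fold for eif-3.B to 6.26-fold for eif-3.J, with a median of 2.13-fold. Of the 11, 2 were called lower (18.2%), beside 33.1% of all genes. The median gene, eif-3.E, had a log2 ratio of -1.08, against a median of -1.14 for all genes. With TMM factors the ratios ran from 0.292 to 1.45, on both sides of 1. The intervals of eif-3.B and eif-3.I on read shares included 1. eif-3.J, a loosely bound subunit, had 116, 20 and 89 reads, or 123.2, 19.7 and 55.2 RPM, and was 6.26-fold lower in the larval library (3.88 to 10.6), a call that remained with TMM factors. eif-3.G, an RNA-binding subunit, was 2.84-fold lower (2.08 to 3.93) at 159.3, 56 and 114.8 RPM, but was not called with TMM factors. The joint L1 to embryo ratio of the 11 genes was 0.505 (0.463 to 0.55), or 0.924 with TMM factors.

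eif-3.B had 145 embryo, 124 L1 and 151 adult reads. Another core scaffold gene, eif-3.C, had 152, 94 and 239 reads, and eif-3.D, whose human counterpart can bind caps, 178, 109 and 279. eif-3.F had 286, 183 and 306 reads and eif-3.K 167, 80 and 149. In 8 of the 11 genes the share was highest in the embryo and lowest in the larval library, and in 2 highest in the adult and lowest in the larval library. No share of all genes is at hand beside these counts. eif-3.E had 65, 33 and 132 reads, eif-3.H 53, 20 and 71, eif-3.I 24, 15 and 50, and eif-3.L 148, 74 and 224.

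Within the eIF3 reads of each library, eif-3.J and eif-3.B departed in opposite ways. eif-3.J made up 7.82% of eIF3 reads in the embryo library (6.50 to 9.30), 2.47% in the larval library (1.52 to 3.79) and 4.75% in the adult library (3.83 to 5.81). The interval in the embryo library lay above both others, and those of the larval and adult libraries lay apart narrowly. eif-3.B, a core scaffold subunit, made up 9.77% (8.31 to 11.4), 15.3% (12.9 to 18.0) and 8.05% (6.86 to 9.38), and its L1 interval lay above both others. eif-3.E made up 4.38%, 4.08% and 7.04% (5.92 to 8.29), highest in the adult library. Per length of its longest annotated transcript, eif-3.F was the highest of the 11 genes in each library (241.4, 143 and 151 RPM per kb). It was followed in each by eif-3.K (210.9, 93.5 and 110 RPM per kb). That place of eif-3.K rests on the division by length. By reads alone eif-3.F was again highest, but eif-3.D (178, 109 and 279 reads) stood above eif-3.K (167, 80 and 149) in each library. Per length eif-3.I was the lowest of the 11 genes in each, at 19.9, 11.5 and 24.2 RPM per kb. No eIF3 gene was called in the young adult against either other library.

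Of the 8 genes of cap binding, 5 were called lower in the L1 against the embryo library beside 33.1% of all genes, and 3 with TMM factors beside 13.5%. inf-1, the eIF4A helicase gene, had 675 embryo, 167 L1 and 800 adult reads, or 716.8, 164.2 and 496.6 RPM. It was 4.37-fold lower in the L1 than in the embryo library (3.68 to 5.20) and 3.02-fold higher in the young adult than in the larval library (2.56 to 3.59), and both calls remained with TMM factors. ifg-1, the eIF4G scaffold gene, had 125, 32 and 104 reads and was 4.22-fold lower in the larval library (2.84 to 6.43). ifet-1, which encodes an eIF4E-binding repressor found in germ granules, had 187, 42 and 196 reads, was 4.81-fold lower in the larval library (3.43 to 6.89) and 2.95-fold higher in the young adult than in the larval library (2.10 to 4.22). With TMM factors the L1 to embryo ratios of ifg-1 and ifet-1 were 0.434 and 0.381 and were not called. The young adult to L1 ratio of ifet-1 stayed at 2.80, with its lower bound of 1.998 just short of the limit. ifg-1 overlaps dab-1 on the same strand, so some of its reads may belong there. inf-1 and ifg-1 kept a similar ratio to each other in the embryo and larval libraries. There were 5.40 inf-1 reads for each ifg-1 read in the embryo library (4.46 to 6.59), 5.22 in the larval library (3.56 to 7.88) and 7.69 in the adult library (6.26 to 9.53), all with overlapping intervals.

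The 5 ife genes encode eIF4E, the protein that binds the cap. Their makeup differed between the libraries. ife-2 had 136 embryo, 19 L1 and 48 adult reads, and was 7.73-fold lower in the L1 than in the embryo library (4.76 to 13.2). ife-4 had 132, 10 and 21 reads, 14.3-fold lower in the larval library (7.51 to 30.4) and 10.8-fold lower in the adult library (6.75 to 18.0), the widest L1 to embryo difference of any member. Both were called lower in the larval library with TMM factors too, while in the young adult against the embryo library ife-4 kept its call and ife-2, 4.85-fold lower on shares (3.46 to 6.89), did not.

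ife-3, needed for germline and embryonic development, went the other way. It had 99 embryo, 57 L1 and 505 adult reads, or 105.1, 56 and 313.4 RPM. The young adult share was 5.59-fold higher than the L1 share (4.25 to 7.49) and 2.98-fold higher than the embryo share (2.40 to 3.74), with TMM ratios of 5.31 and 5.19. With the adult share taken off the L1 level, the young adult to L1 ratio was 10.8 (7.31 to 16.5), and ife-3 was also called lower in the L1 than in the embryo library. ife-1, whose protein associates with germ granules, stayed level at 89.2, 89.5 and 97.4 RPM. Its L1 to embryo ratio of 1 (0.737 to 1.37) and young adult to L1 ratio of 1.09 (0.836 to 1.43) both included 1, and with TMM factors its L1 to embryo ratio was 1.84. ife-5 had 8, 6 and 22 reads, too few to place. The ife genes are related in sequence, so some reads may have been split between them, and how reads were assigned is not given in the sources used here.

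As shares of the reads of the 5 genes, ife-2 held 29.6% in the embryo library (25.5 to 34.0) and ife-4 28.8% (24.7 to 33.1), so that no gene held a majority. In the larval library ife-1 led with 49.7% (42.3 to 57.2), and ife-4 held 5.46% (2.65 to 9.82). ife-3 held 31.1% there, or 19.4% with the adult share taken off. In the adult library ife-3 held 67.1% (63.6 to 70.4). Per length the leading genes were the same, with ife-2 at 173 RPM per kb in the embryo library, ife-1 at 89.9 in the larval library and ife-3 at 281.1 in the adult library. In the embryo library ife-2 and ife-4, at 173 and 164.9 RPM per kb, did not differ beyond counting error.

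The 2 eIF5A genes differed between the libraries in opposite directions. iff-1, required for germ cell proliferation, had 490 embryo, 306 L1 and 2345 adult reads, or 520.3, 300.8 and 1456 RPM. iff-2, which acts in the soma, had 681, 1185 and 530 reads, or 723.2, 1165 and 329 RPM. The adult library was thus high for iff-1 and low for iff-2, and the larval library the reverse. iff-1 was 4.84-fold higher in the young adult than in the larval library (4.29 to 5.47), and iff-2 was 3.54-fold lower (3.19 to 3.93), and these calls remained with TMM factors. With the adult share taken off the L1 level, the iff-1 ratio was 8.03 (6.87 to 9.45), and iff-1 was called lower in L1 than in embryo too. iff-1 made up 41.8% of the reads of the pair in the embryo library (39.0 to 44.7), 20.5% in the larval library (18.5 to 22.7) and 81.6% in the adult library (80.1 to 83.0). The larval share was 12.7% with the adult share taken off. Together the pair held 0.124%, 0.147% and 0.178% of reads, with ratios to embryo of 1.18 in L1 and 1.44 in young adult, but 2.16 and 2.50 with TMM factors.

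The members known from the germline were set beside 9 germline marker genes. These markers, gld-1, glp-1, pgl-1, glh-1, rme-2, cbd-1, puf-5, oma-1 and oma-2, had reads in each library (0 of 9 at 0) and summed to 817.7 RPM in the embryo, 359.8 in the L1 and 2631 in the adult library. iff-1, ife-3 and ifet-1 were likewise lowest in the larval library on read shares, although with TMM factors the L1 to embryo ratios of iff-1 and ife-3 were 1.06 and 0.976. A lowest share in L1 was not particular to them. Most initiation genes had it, 22 with their highest share in embryo and 9 with it in young adult. No share of all genes is at hand beside these counts. The median log2 ratio of all genes was -1.14 for L1 against embryo and 0.32 for young adult against L1, so the typical gene was low in L1 too. Unlike the markers, ifet-1 was highest in the embryo library on read shares, at 198.6 RPM against 121.7 in the adult library. With TMM factors its young adult to embryo ratio was 1.07 (0.868 to 1.31), so this contrast rests on the scaling. iff-1 and ife-3 were highest in the adult library on both scales. ife-1, also tied to germ granules, did not share this order, with its lowest level in embryo and a TMM ratio of L1 to embryo of 1.84. The part of germline content in these differences was not tested.

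**Figure D3:**
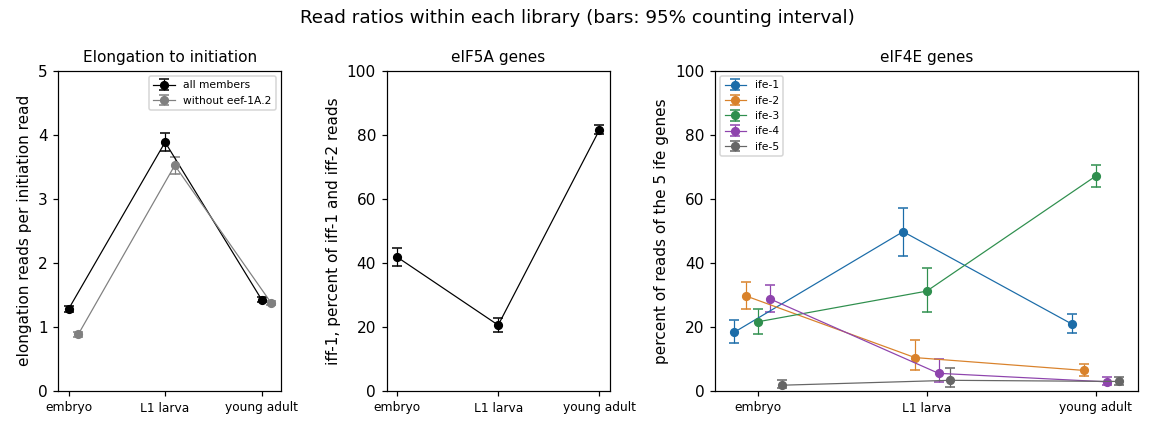
Ratios inside each library, with 95% counting intervals: elongation reads per initiation read (left), iff-1 as a percent of iff-1 and iff-2 reads (middle), and each ife gene as a percent of the reads of the 5 ife genes (right). The elongation ratio is highest in the larval library at 3.88, iff-1 is highest in the adult library at 81.6%, and ife-3 holds 67.1% of the young adult ife reads.

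eif-6, which overlaps gale-1 on the same strand, was called in 1 pair. Its product keeps the large ribosomal subunit from joining too early and takes part in its maturation. It had 139 embryo, 50 L1 and 150 adult reads, and was 3-fold lower in the larval library (2.16 to 4.24), a call lost with TMM factors (ratio 0.610), and 1.89-fold higher in the young adult than in the larval library (1.37 to 2.66), which was not called.

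Among the elongation factor genes, eef-2, eef-1B.1 and eef-1G had larger shares in the larval library than in the embryo library. eef-2, the translocase gene, had 2081 embryo, 6464 L1 and 4092 adult reads, or 2209.9, 6355 and 2539.9 RPM. It was 2.88-fold higher in the larval library (2.74 to 3.02), the only member called higher there on read shares, and 2.50-fold lower in the young adult than in the larval library (2.41 to 2.60). eef-1B.1, an exchange factor gene for eEF1A, had 1635, 3611 and 4083 reads and was 2.04-fold higher in the larval library (1.93 to 2.17). eef-1G, the gamma subunit gene of the same complex, had 1124, 2543 and 4075 reads and was 2.09-fold higher (1.95 to 2.25). Both missed the call on read shares, since their lower bounds were under 2, and both passed with TMM factors at ratios of 3.74 and 3.84.

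eef-1G and eef-1B.1 parted in the adult library. There were 0.687 eef-1G reads for each eef-1B.1 read in the embryo library (0.637 to 0.742) and 0.704 in the larval library (0.669 to 0.741), but 0.998 in the adult library (0.955 to 1.04). In RPM, eef-1G kept its L1 level in the adult library (2500.2 and 2529.3), whereas eef-1B.1 was 1.40-fold lower there (1.34 to 1.47), with a TMM ratio of 0.678. eef-1B.2, the other exchange factor gene of the set, behaved like the initiation genes in its order of libraries, with 240, 140 and 359 reads and 254.9, 137.6 and 222.8 RPM. There were 6.81 eef-1B.1 reads for each eef-1B.2 read in the embryo library (5.95 to 7.83), 25.8 in the larval library (21.8 to 30.8) and 11.4 in the adult library (10.2 to 12.7).

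eef-1A.2, an eEF1A gene, differed from both groups. It had 2285 embryo, 1311 L1 and 503 adult reads, or 2427, 1289 and 312.2 RPM, each library lower than the one before in development. It was 1.88-fold lower in the L1 than in the embryo library (1.76 to 2.02), which was not called and was 0.973 as a ratio with TMM factors. It was 4.13-fold lower in the young adult than in the larval library (3.72 to 4.58) and 7.77-fold lower than in the embryo library (7.05 to 8.58), and both were called with TMM factors too. Against eef-2 there were 1.10 eef-1A.2 reads per read in the embryo library (1.03 to 1.17), 0.203 in the larval library (0.191 to 0.215) and 0.123 in the adult library (0.112 to 0.135). eEF1A is encoded by near-identical copies, so this gene's values are uncertain. No gene named eef-1A.1 is among the members, so these values do not give the level of eEF1A as a whole.

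Other genes of translation were counted as lists. Of 29 aminoacyl-tRNA synthetase genes with enough reads, which charge tRNAs with amino acids, 1 was called higher and 0 lower in the L1 against the embryo library, beside 13.4% and 33.1% of all genes, with a median log2 ratio of -0.65. sars-1, for serine, had 353.6, 359.8 and 278.1 RPM and dars-1, for aspartate, 233.6, 162.2 and 243.9 RPM. In the young adult against the larval library 4 of 30 were higher and 0 lower, beside 14.5% and 14.2%, and 3 were higher with TMM factors. Of 6 other initiation genes 0 were higher and 2 lower in the L1 against the embryo library, the background share, and 1 was lower with TMM factors. Among them pab-1, the main poly-A binding protein gene, had 1921, 1938 and 1610.1 RPM, and drr-2, an eIF4H homologue, 308, 129.8 and 171.3 RPM. Neither direction was called for the 3 release and recycling genes or the 5 mitochondrial factors in that pair, and 1 of each was higher in the young adult against the larval library. The release factor genes erfa-1 and erfa-3 had 145.5, 107.2 and 233.4 RPM and 130.6, 50.1 and 170.7 RPM. The mitochondrial elongation factor genes tufm-1 and tsfm-1 had 135.9, 50.1 and 125.4 RPM and 61.6, 30.5 and 99.9 RPM. Of 7 genes that control or modify the factors 1 was lower in the L1 against the embryo library and 5 in the young adult against the embryo library, beside 33.1% and 29.3% of all genes, but 0 in either pair with TMM factors. One of these, dohh-1, encodes the hydroxylase that completes the hypusine residue of eIF5A, and it had 200.7, 239.9 and 75.7 RPM. Its order of libraries was that of iff-2, but also that of sars-1, pab-1 and atf-5. A link between dohh-1 and iff-2 was not tested. atf-5, a transcription factor gene of the stress response that acts through eIF2, had 131.7, 169.1 and 116.1 RPM.

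Of the 39 genes, 11 lie on chromosome I, 12 on II, 7 on III, 2 on IV, 4 on V and 3 on X (WBcel235, Ensembl release 115). ife-2 (chromosome X, 381385 to 382709, minus strand), ife-4 (chromosome X, 1104212 to 1106251, plus strand) and eef-1A.2 (chromosome X, 7823654 to 7825769, plus strand) are the 3 on the X chromosome. Each had its highest share in the embryo library, and they were also the 3 members called lower on read shares in the young adult against the embryo library, ife-2 not so with TMM factors. Of all 1084 X-linked genes compared, 50.7% were called lower in that pair, and 34.8% with TMM factors, against 29.3% and 17.3% of all genes. The members were grouped by chromosome after their values were seen. iff-1 lies on chromosome III (9745862 to 9747193, minus strand), iff-2 on II (8559375 to 8561367, minus strand), ife-3 on V (6584 to 7828, minus strand) and inf-1 on III (6930134 to 6931953, plus strand). In 7 of 39 members (17.9%) the next protein-coding gene upstream on the same strand ended within 500 bases, beside 21.1% of 9545 protein-coding genes with enough reads. In 4 members the gene overlapped another on the same strand: eif-1 with pigb-1, ife-1 with dro-1, ifg-1 with dab-1 and eif-6 with gale-1. dab-1 had 291, 146 and 297 reads and gale-1 105, 42 and 153, enough to matter for ifg-1 and eif-6 if reads were split. pigb-1 had 8, 4 and 2 reads and dro-1 5, 8 and 46.

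The deposited table divides each gene's reads over isoform rows, and the 39 genes had 1141 rows, of which 100 carry an annotated transcript name. The other rows carry the identifier of a read, and their exon structure is not given. Annotated rows held 18.3% of the members' reads, beside 17% over all genes. Members had between 2 and 86 rows with at least 2 reads, with most for eef-2. How the authors divided isoform reads among the libraries is not stated, and the shares below rest on it. Each gene's largest row, called its leading row, was an annotated transcript in 6 of 39 genes. For eif-6 the annotated row held 84.9%, 90% and 86.7% of embryo, L1 and adult reads, whereas for eef-2 the leading row held 12.8%, 12.8% and 15.7%.

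eif-1 had the clearest exchange of rows. Its leading row held 37.8% of embryo reads (146 of 386, 33.0 to 42.9), 21.9% of larval reads (44 of 201, 16.4 to 28.3) and 56.1% of adult reads (281 of 501, 51.6 to 60.5). Its next row held 30.1% (25.5 to 34.9), 43.3% (36.3 to 50.4) and 26.7% (22.9 to 30.9). The leading intervals of the 3 libraries lay apart from one another, and the next row was the larger one in the larval library. Both rows carry read identifiers, so what separates them is not given.

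eif-3.K, a small eIF3 subunit, also exchanged its 2 main rows. The leading row held 29.9% of embryo reads (23.1 to 37.5), 31.2% of larval reads (21.3 to 42.6) and 53.7% of adult reads (45.3 to 61.9). The next row held 39.5% (32.1 to 47.4), 42.5% (31.5 to 54.1) and 10.7% (6.26 to 16.9). The adult library stood apart from both others in each row. For eif-2gamma the larval library stood apart: its leading row held 24% of embryo reads (18.9 to 29.6), 41.9% of larval reads (33.8 to 50.3) and 28.9% of adult reads (25 to 33.1). For iff-1 the leading row held 65.7%, 60.8% and 72.4%, and for iff-2 48.8%, 47.4% and 57.9%, with the young adult interval apart from both others in each gene. inf-1 had 19.7%, 22.2% and 21.9%, with overlapping intervals.

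The elongation genes showed smaller differences on many reads. The leading row of eef-1G held 15.3% of embryo (13.3 to 17.5), 15.2% of L1 (13.8 to 16.7) and 22% of adult reads (20.7 to 23.3). That of eef-1B.1 held 12.8%, 14.6% and 19.3%, and here too the adult interval (18.1 to 20.5) lay above both others, as it did for eef-2 (14.6 to 16.9). eef-1A.2 divided otherwise, with 38.4% in the embryo library (36.4 to 40.4), 45.6% in the larval library (42.9 to 48.4) and 48.5% in the adult library (44.1 to 53.0), and its embryo interval lay below both others.

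**Figure D4:**
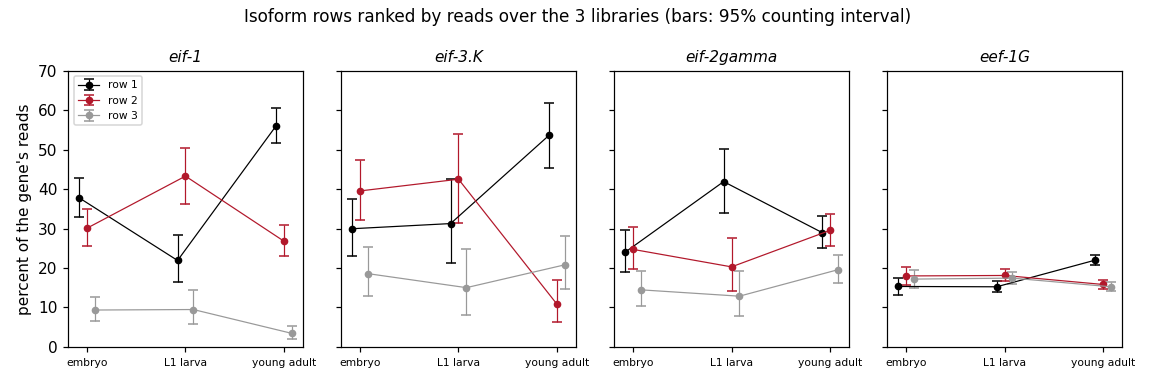
Percent of a gene's reads on its 3 largest isoform rows, ranked over the 3 libraries, with 95% counting intervals, for eif-1, eif-3.K, eif-2gamma and eef-1G. In eif-1 row 1 goes from 37.8% in the embryo library to 21.9% in the L1 and 56.1% in the adult library, and in eif-3.K row 2 stands at 10.7% in the adult library.

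Among members with at least 20 reads in both libraries, the leading share had intervals apart in 3 of 30 for L1 against embryo, beside 1.57% of all genes with as many reads. For young adult against L1 it was 8 of 30, beside 8.68%, and for young adult against embryo 8 of 38, beside 8.92%. Members had more reads, with medians of 249, 360 and 326 over the 2 libraries against 150, 158 and 164 for all genes, which narrows their intervals. In the 8 genes apart between young adult and embryo the leading share was higher in the adult library in each. The leading row was chosen on reads in which that library, the deepest, weighs most. The part of depth in these counts was not tested.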

How the data were processed

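Direct RNA sequencing reads of poly-A RNA from embryos, L1 larvae and young adults were made on MinION R9.4.1 flow cells with MinKNOW 2.1 and Albacore 2.0.1, per the labels' protocols, and aligned with minimap2 2.14, per the submitters' processing notes. The genome build, the annotation and the way reads were assigned to isoforms are not stated in those sources. The main table holds estimated counts of reads per isoform row and library, as the authors deposited it, with no scaling for depth. The tables of single libraries hold, as deposited, a signal headed Cpm that is a fixed multiple of estimated reads and was not scaled to its own library; they gave gene symbols only.

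Members were found by 9 symbol prefixes, and members, lists and rules were chosen with earlier results of these data known. Rows were summed per gene, rounded to whole reads and divided by library totals. Ratios of shares carry exact conditional binomial intervals and shares exact Clopper-Pearson intervals (95%), which cover counting error only. A count of 0 allows up to 3 reads, or 3.19, 2.95 and 1.86 RPM in the embryo, larval and adult libraries. Genes with at least 20 reads in the pair were called where the nearest bound was 2-fold or more from 1; no test between stages was possible. Named genes are the members, the best-read genes of each other list, and for isoforms the best-read members, eif-1 and members with intervals apart. edgeR 4.0.16 gave TMM factors and DESeq2 1.42.0 size factors, used for scaling only, in R 4.3.3. Other steps used Python 3.11.15, pandas 2.3.3 and scipy 1.17.1. Coordinates and transcript lengths come from the Ensembl 115 annotation of WBcel235. The calling rule was tested on simulated data. Alternatives were other scalings, read minimums of 0 and 100, a 1.5-fold bound, 5 reads added in place of 0.5, annotated rows only and, added after seeing the data, the L1 library with an adult share removed that was set by its yolk genes.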

Additional observations from a re-analysis of the deposited data

How the results depend on the processing

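No paired analysis was possible because each stage has 1 library, and for the same reason no replicate could be left out. Scaling moved most values, as library totals enter each share. The L1 to embryo ratio of the members' joint share (1.25) was 2.28 with TMM factors, 2.37 with DESeq2 size factors, 1.67 without ribosomal protein genes in the totals, 1.42 on annotated rows and 1.40 without eef-1A.2. In the same order the young adult to L1 ratio (0.796) was 0.757, 0.751, 0.738, 0.565 and 0.840, and the young adult to embryo ratio (0.993) was 1.73, 1.78, 1.23, 0.804 and 1.18. Annotated rows held 0% of eef-1G and iff-1 reads, 0.004% of eef-1B.1, 0.046% of eif-1 and 1.2% of iff-2 reads. They held 40.0% of eef-2 and 30.7% of eef-1A.2 reads, so the annotated-row ratios weigh the members differently. The median log2 ratio of the members for L1 against embryo (-0.96) was -0.091 with TMM factors, -0.040 with DESeq2 size factors and -0.55 without ribosomal protein genes. For young adult against embryo (-0.37) it turned to 0.43 and 0.47 with TMM and DESeq2 factors and was -0.063 without ribosomal protein genes, and for young adult against L1 (0.85) it was 0.66 with 5 reads added and 0.74 without ribosomal protein genes.

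Members called higher in L1 than in embryo (1) numbered 4 with TMM or DESeq2 factors, 3 at a 1.5-fold bound and 3 without ribosomal protein genes. Those lower (10) numbered 4 with TMM factors, 3 with DESeq2 factors, 3 on annotated rows, 6 without ribosomal protein genes and 19 at a 1.5-fold bound. Those higher in young adult than in L1 (4) numbered 1 on annotated rows and 12 at 1.5-fold. Those higher in young adult than in embryo (2) numbered 4 with TMM or DESeq2 factors and 0 on annotated rows, and those lower (3) numbered 7 at 1.5-fold. For DESeq2 factors, totals without ribosomal protein genes, the 1.5-fold bound and annotated rows, no share of all genes called was set beside these counts. They therefore do not place the members against other genes. On annotated rows the members whose leading share had intervals apart numbered 0 for L1 against embryo, 1 for young adult against L1 and 1 for young adult against embryo, in place of 3, 8 and 8; the alternative drops most reads. With TMM factors 8 single-gene calls were lost and 5 gained over the 3 pairs, with DESeq2 factors 9 and 5, without ribosomal protein genes 5 and 3, and no called gene changed direction under these. On annotated rows 67 of the gene and pair values kept enough reads, and 4 calls among them were lost; the further calls went with values left under the minimum. With the adult share taken off the L1 library, an alternative chosen after seeing the data, 12 members were lower in L1 than in embryo and 6 higher in young adult than in L1, in place of 10 and 4. Over all genes the shares in the same order were 36.0% and 18.7%, in place of 33.1% and 14.5%. Genes with few reads, such as ife-5, eif-2D and eif-2Balpha, have intervals that span 2-fold and more.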
